A study of Mus musculus with 18 samples.

Results

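The collagen genes of mouse adipocytes were examined in 18 RNA-seq libraries from an experiment on gain and an experiment on loss of IRF3, a transcription factor activated by innate immune signalling. The members were all protein-coding genes whose symbol has the form of a collagen chain name (Col, a type number, a and a chain number), and 44 of the 33440 genes in the deposited quantifications met this rule. They were sorted by the structure their proteins build into 11 fibrillar, 9 basement membrane, 6 beaded filament, 9 FACIT, 3 short chain and 4 transmembrane collagens and 2 others. FACIT stands for fibril-associated collagens with interrupted triple helices.

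Collagens are secreted proteins whose chains wind into triple helices. Fibrillar collagens give connective tissue its tensile strength, while type IV collagen forms the sheet-like network of basement membranes, the thin matrix layer that surrounds every adipocyte. Type VI collagen assembles into beaded microfilaments, is abundant in adipose tissue and has been linked to fibrosis of the tissue in obesity. Chains of one type are made together in fixed proportions, such as 1 Col1a2 chain for each pair of Col1a1 chains in type I collagen.

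Gain of IRF3 was studied in adipocytes differentiated in culture, on collagen-coated dishes, from stromal vascular fraction (SVF) cells of inguinal white fat of IRF3-2D mice (written IRF-2D in the labels), which carry a Cre-dependent, constitutively active Irf3 allele. The donors were 4 to 6 weeks old. The cells received AAV-GFP (WT, n = 3) or AAV-GFP-Cre (FI3OE, n = 3) on day 6 and were harvested on day 8. The WT cells thus carried the same allele without recombination, and Cre itself also differed between the groups. Loss of IRF3 was studied in adipocytes of epididymal white fat (eWAT) of Ad-NuTRAP mice (WT, n = 6) and FI3KO-Ad-NuTRAP mice (FI3KO, n = 6), the latter with floxed Irf3 deleted by Adipoq-Cre. All mice of the second experiment were fed a high-fat diet for 8 weeks at thermoneutrality. The paper states a starting age of 8 weeks for male mice on such a diet at thermoneutrality, but for a longer course. An age for the mice sequenced here is not given. In translating ribosome affinity purification (TRAP) tagged ribosomes of Adipoq-Cre-expressing cells are pulled down, so these libraries hold ribosome-bound RNA, whereas the cultured cells were sequenced as total RNA. The strain was C57BL/6 throughout, and the labels call every library a biological replicate without naming the animal or culture, so the p-values measure the spread between these libraries.

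The libraries held 21541334 to 40490283 assigned reads. Irf3 was higher in FI3OE than in WT cultures, at 91.4 to 102 against 56.8 to 57.9 CPM (reads of the gene scaled to a common library size). In the TRAP libraries total Irf3 had a lower mean in FI3KO (15.8 CPM) than in WT (20.1 CPM), but the ranges overlapped (12.5 to 19.97 and 16.4 to 22.8). There, 1 annotated transcript of Irf3 had 0 reads in all FI3KO libraries and 164 to 388 in WT. Adipocyte markers such as Adipoq, Fabp4 and Plin1 summed to 12680 to 13547 CPM in culture and 38654 to 44748 CPM in TRAP, so the defining markers of the labelled cell type were present. Macrophage markers summed to 2114 to 2362 CPM in the cultures and to 14.8 to 86.7 CPM in TRAP. In TRAP, the libraries numbered 1 and 2 of each genotype stood apart from those numbered 3 to 6, and the labels do not say why. Collagen calls that were lost in one of these sets are given with the values of both, and the lists of other genes by their counts in each set.

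In culture, collagen was a large share of the transcriptome and the fibrillar chains led it. Members took 3.04 to 3.08% of the reads in FI3OE and 3.31 to 3.36% in WT cultures, so the groups did not overlap. Mitochondrial transcripts differed there too, at 1.01 to 1.16% of the reads in FI3OE and 2.12 to 2.31% in WT, and their part in the collagen values was not tested. In the TRAP libraries the members took 0.510 to 0.759% of the reads in FI3KO and 0.890 to 1.29% in WT, again without overlap. In bulk libraries, fewer cells of a type and less RNA per cell cannot be told apart. Levels between genes were compared as TPM, a unit that takes transcript length into account, summed over each gene's transcripts.

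Col1a1, Col3a1 and Col1a2, the chains of types I and III collagen, were the members at the highest level in WT cultures, at 3254 ± 46.4, 2937 ± 43.2 and 2076 ± 28.7 TPM (SD, n = 3). Col4a1, a chain of the main basement membrane collagen, followed at 2045 ± 38.9 TPM, a range that overlapped with that of Col1a2. In WT TRAP the order was different, with Col4a1 first at 1631 ± 220 TPM (SD, n = 6), then Col15a1 at 634 ± 53.9, Col4a2 at 580 ± 79.5 and Col18a1 at 571 ± 68.7 TPM. The last 3 overlapped in range. Col15a1 and Col18a1 encode the multiplexins, collagens of the basement membrane zone. The basement membrane class summed to 3419 ± 376 TPM in WT TRAP and to 3216 ± 66.1 in WT cultures, whereas the fibrillar class summed to 1622 ± 370 and 9323 ± 93.3 TPM. Depot, culture and RNA isolation all differ between the experiments, so their parts in these levels cannot be told apart and no test was made between them.

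Most members were at low level. In WT TRAP 12 members had a mean of at least 100 TPM, 3 lay between 10 and 100, 4 between 1 and 10 and 25 below 1 TPM, and in WT cultures the corresponding numbers were 14, 6, 8 and 16. Col12a1, a FACIT that binds along type I fibrils, was at 220 ± 8.85 TPM in WT cultures and 17.3 ± 4.26 in WT TRAP. Col28a1, a collagen related to type VI by its von Willebrand factor A domains, was at 52.2 ± 2.62 TPM in WT cultures and at 0.254 TPM in WT TRAP. Col11a1, a minor fibrillar chain, was at 11.9 TPM in WT cultures and had 0 reads in all 12 TRAP libraries, as did Col9a1. The cartilage collagen gene Col2a1 stayed at or below 0.018 TPM in every group mean.

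**Figure D1:**
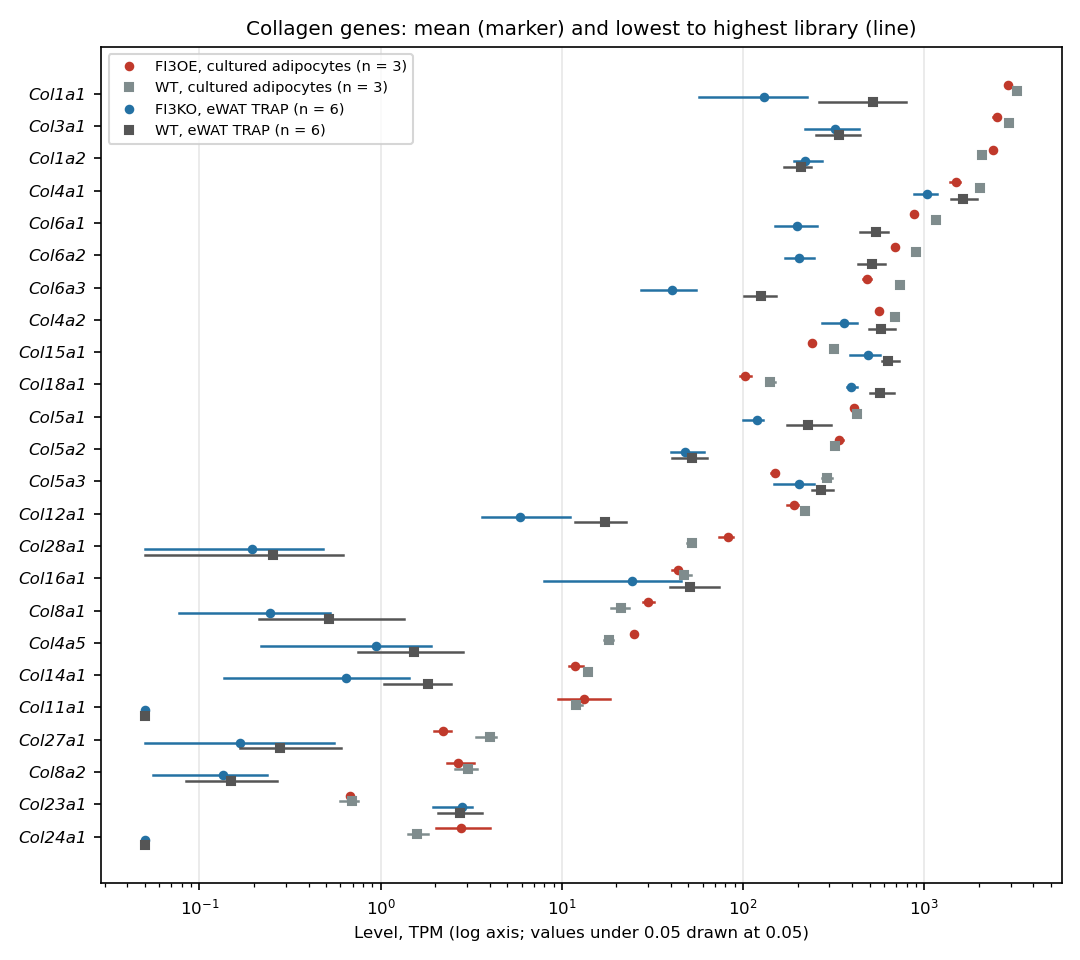
Level of the 24 collagen genes with the highest group means (TPM, log axis; values under 0.05 are drawn at 0.05) in FI3OE and WT cultured adipocytes and in FI3KO and WT eWAT TRAP, as the mean (marker) and the lowest to highest library (line). Col1a1, Col3a1 and Col1a2 are at 2044 TPM or more in all cultures and at 790 TPM or less in all TRAP libraries, and Col11a1 is at 0 in TRAP.

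Part of a summed TPM can come from short transcripts that receive few reads but count per length. The full-length transcript Col4a1-201 (6615 nt) carried 42.3% of the TPM of Col4a1 in WT TRAP, and Col18a1-201 carried 39.6% of that of Col18a1. For Col1a1, Col1a2, Col5a1 and Col6a1 the leading transcript carried at least 96.7% of the gene's TPM in every group. With the leading transcript alone, Col4a1 was at 690 ± 96.3 TPM in WT TRAP, Col15a1 at 627 ± 56.1 and Col4a2 at 561 ± 71.4. Col18a1 was then at 226 ± 19.8 TPM, below Col6a1 at 539 ± 82.0. The wide lead of Col4a1 and the high place of Col18a1 in WT TRAP thus held only for the sum over transcripts.

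Promoter sequences of members that moved together and of members that did not are shown here, so that they can be read beside the values that follow. The windows are the 250 bases before the RefSeq transcription start (assembly GRCm38.p6), 5′ to 3′ on the gene's strand, and those shown overlap no annotated exon. Col6a2 has 2 such starts in RefSeq, and the window of the other, which overlaps an exon of the gene and holds 3 matches to GGGCGG against 1 here, is not shown. Col6a2 and Col6a3 fell together in FI3KO TRAP, as did Col5a1, while Col3a1 was not called there and Col5a3 fell most among the abundant members in FI3OE cultures. Capitals mark matches, on either strand, to any of 4 motifs. These were GGGCGG, which is the core of an Sp1 site, the promoter box CCAAT, the TATA box spelled TATAAA, and the core of the interferon-stimulated response element (ISRE), which holds GAAA on both sides of any pair of bases.
Col6a2, chr10:76623631-76623880, minus strand: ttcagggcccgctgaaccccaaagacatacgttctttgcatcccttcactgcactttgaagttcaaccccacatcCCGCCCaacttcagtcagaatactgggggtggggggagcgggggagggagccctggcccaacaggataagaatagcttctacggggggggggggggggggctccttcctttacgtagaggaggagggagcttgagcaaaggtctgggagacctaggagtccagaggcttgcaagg
Col6a3, chr1:90843972-90844221, minus strand: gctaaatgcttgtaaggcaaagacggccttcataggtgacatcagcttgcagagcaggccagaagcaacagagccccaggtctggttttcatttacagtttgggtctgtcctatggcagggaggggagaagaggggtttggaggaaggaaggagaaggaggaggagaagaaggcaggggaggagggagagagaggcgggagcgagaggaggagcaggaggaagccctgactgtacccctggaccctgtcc
Col5a1, chr2:27886175-27886424, plus strand: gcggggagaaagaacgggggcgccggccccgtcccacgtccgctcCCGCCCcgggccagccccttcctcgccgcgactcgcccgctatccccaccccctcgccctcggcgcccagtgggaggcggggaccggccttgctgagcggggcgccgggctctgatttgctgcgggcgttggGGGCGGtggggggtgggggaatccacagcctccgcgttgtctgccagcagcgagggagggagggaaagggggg
Col5a3, chr9:20815068-20815317, minus strand: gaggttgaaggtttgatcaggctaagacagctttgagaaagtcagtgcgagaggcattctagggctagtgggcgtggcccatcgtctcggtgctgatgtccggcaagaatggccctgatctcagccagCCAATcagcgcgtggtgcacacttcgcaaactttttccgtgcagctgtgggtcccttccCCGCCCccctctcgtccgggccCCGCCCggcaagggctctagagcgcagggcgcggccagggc
Col3a1, chr1:45311288-45311537, plus strand: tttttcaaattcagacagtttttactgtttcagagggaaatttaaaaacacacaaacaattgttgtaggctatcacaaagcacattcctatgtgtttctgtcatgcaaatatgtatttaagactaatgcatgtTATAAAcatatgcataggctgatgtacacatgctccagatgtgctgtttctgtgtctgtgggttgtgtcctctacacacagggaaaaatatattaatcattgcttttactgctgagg

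RefSeq windows, 38 in all, were at hand for 35 of the 44 members. A member counted if any of its windows matched, whereas the shares over all genes are per window. G and C made up a median of 59% of the members' windows and 52.4% of all windows. The part of this difference in the motif counts was not tested. GGGCGG was in the window of 21 of these 35 genes, against 32.7% of all 32851 windows. CCAAT was in that of 13 members (33.8% of all windows) and TATAAA in that of 5 (12.4%). The ISRE core was in the window of 0 of the 35 members and in 2.98% of all windows. Among the 10 members with a window that were lower in FI3KO TRAP, GGGCGG was in 6 and CCAAT in 4. Such a match describes the letters of this window and is not a binding site, and its absence says only that the letters are not in these 250 bases.

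Several members lie next to each other in the genome (GRCm38, GENCODE M21). Col4a1 and Col4a2, whose chains make the common type IV trimer, run head to head on chromosome 8 and overlap by 22 bases at their starts. Col4a4 and Col4a3 lie head to head 71 bases apart on chromosome 1, and Col4a6 and Col4a5 lie 1308 bases apart on chromosome X. Col3a1 and Col5a2 point towards each other on chromosome 1 with 24614 bases between them. Col6a2 and Col6a1 follow each other on the minus strand of chromosome 10, while Col6a3 is on chromosome 1. Col20a1 shares 79 exonic bases with an overlapping gene on its own strand, so reads there could be assigned to either. Exons of Col3a1 share 141 bases with an annotated miRNA gene on the same strand, and those of Col5a1 share 99 and 113 bases with transcripts of the other strand, whose reads cannot be told apart in these unstranded libraries. The same holds for 14 exonic bases of Col15a1, 43 of Col4a2 and 18 of Col10a1.

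Gain of IRF3 was compared with WT in cultured adipocytes, a comparison that asks which genes lie downstream of IRF3. Many collagens changed there, mostly by small amounts. Col6a1, Col6a2, Col6a3, the main type IV chains Col4a1 and Col4a2 and the multiplexins fell by between 0.21 and 0.54 on the log2 scale, Col1a2 rose while Col1a1 and Col3a1 fell slightly, and Col5a3 fell most among the abundant members. Of the 44 members 36 passed the filter on low counts. By the quasi-likelihood test of edgeR at an FDR of at most 0.05 (Benjamini-Hochberg), 17 were lower and 7 higher, against 16.8% lower and 20.2% higher among all 16105 genes tested. Their median log2 fold change was -0.17, beside 0.00 over all genes (-0.0047). Groups did not overlap for 25 of the 36 members, against 49.5% of all genes tested. Adding a cutoff of 1 on the log2 fold change in either direction left 2 members, against 3.62% of all genes. These were Col25a1, higher (1.99% of all genes), and Col20a1, lower (1.63%).

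These calls depended on which libraries set the spread. When all 18 libraries were fitted together, so that the cultures shared their dispersion estimate with the TRAP libraries, 2 members, Col5a3 and Col18a1, were lower (4.09% of all genes in that fit) and 1, Col25a1, was higher (6.11%).

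Among the fibrillar members tested, 3 rose, 6 fell and 1, Col5a1, was not called. Col1a2, which encodes the second chain of type I collagen, had 5403, 5562 and 5380 CPM in the FI3OE libraries and 4368, 4511 and 4525 CPM in WT. The groups did not overlap, and the log2 fold change was 0.29 ± 0.028 (SE, FDR 1.06e-05 by edgeR). Col1a1, its partner chain, had 6344, 6579 and 6362 CPM in FI3OE and 6683, 6781 and 6952 in WT. All FI3OE values were below all WT values, but the difference was small (log2 fold change -0.08 ± 0.027, FDR 0.035 by edgeR), and it did not pass without a filter on low counts (FDR 0.21) or without 4 of the 6 libraries in turn (FDR 0.081 to 0.17).

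Col3a1, whose product copolymerises with type I collagen, was at 5513, 5428 and 5657 CPM in FI3OE and 5775, 5907 and 6018 in WT. It was lower in every FI3OE library (log2 fold change -0.09 ± 0.028, FDR 0.023 by edgeR), but the call was lost without a filter (FDR 0.15) and without FI3OE replicate 1 (FDR 0.084) or WT replicate 2 or 3 (FDR 0.067 and 0.12). Type V collagen nucleates fibrils and controls their width, and its 3 chains moved apart. Col5a3, a chain found in fewer tissues, had 317, 345 and 352 CPM in FI3OE and 655, 613 and 583 in WT. The gap between the groups was wider than the spread within either, and the log2 fold change was -0.87 ± 0.051 (FDR 1.78e-07 by edgeR). Col5a2 rose by 0.14 ± 0.040, a call lost without FI3OE replicate 1 (edgeR FDR 0.063) or WT replicate 1 (FDR 0.056), and Col5a1 stood at 0.02 ± 0.031 without a call (FDR 0.595 by edgeR).

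The remaining fibrillar calls were at low level. Col24a1 rose by 0.42 ± 0.13 on the log2 scale, from 5.14 ± 0.634 to 6.92 ± 0.819 CPM (SD, n = 3), and was not called without FI3OE replicate 1 (edgeR FDR 0.097) or WT replicate 1 (FDR 0.092). Col27a1 was at 5.06 ± 0.204 CPM in FI3OE and 7.87 ± 0.437 in WT, and Col11a2 at 1.92 ± 0.106 and 3.14 ± 0.680. Both fell, but Col11a2 was not called without WT replicate 1 (edgeR FDR 0.061) and stood at -0.28 (FDR 0.65) once transcript length entered the fit. Col11a1 was called lower, at 35.7 ± 2.78 against 40.0 ± 0.442 CPM, but its log2 fold change turned from -0.17 to 0.19, without a call, in the fit with transcript length. Its call was also lost without any one of FI3OE replicates 2 and 3 and WT replicates 1, 2 and 3 (edgeR FDR 0.070 to 0.15).

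The 4 abundant basement membrane members all fell. Col4a1 had 2131, 2132 and 2252 CPM in FI3OE and 2705, 2778 and 2681 in WT, a log2 fold change of -0.33 ± 0.033 (FDR 1.30e-05 by edgeR). Col4a2 had 1393, 1343 and 1393 CPM against 1582, 1648 and 1560, a log2 fold change of -0.21 ± 0.033 (FDR 0.00039 by edgeR). Neither gene's groups overlapped. Col15a1 fell from 657 ± 8.45 to 522 ± 30.0 CPM and Col18a1, which holds the endostatin sequence at its end, from 204 ± 2.72 to 159 ± 9.24 CPM. Col4a5, a chain of the alternative type IV trimers, went the other way. Its 3 FI3OE libraries were at 83.0, 83.7 and 83.7 CPM, all above the WT values of 55.8, 60.5 and 60.1 (log2 fold change 0.51 ± 0.041, FDR 2.37e-06 by edgeR). The other 4 basement membrane members, Col4a3, Col4a4, Col4a6 and Col7a1, had group means of 0.79 to 2.22 CPM and were not called.

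All 3 chains of the common type VI trimer fell. Col6a3, the largest chain and the source of the fragment endotrophin, had 1875, 1831 and 1980 CPM in FI3OE and 2772, 2691 and 2819 in WT. Its log2 fold change was -0.54 ± 0.036 (FDR 4.36e-07 by edgeR). Col6a1 was at 1684.5 ± 27.8 CPM against 2099 ± 46.5, and Col6a2 at 1069 ± 17.9 against 1328 ± 8.09. Their log2 fold changes were nearly the same, -0.32 ± 0.031 and -0.31 ± 0.030. Col6a5 and Col6a6, alternatives to Col6a3 in the trimer, were at most 3.20 CPM in any group mean and were not called.

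Among the other members, Col25a1 rose most. This transmembrane collagen, known as a component of amyloid plaques, had 3.85, 3.63 and 3.85 CPM in FI3OE and 0.702, 0.833 and 0.788 in WT, a log2 fold change of 2.28 ± 0.18 (FDR 1.77e-06 by edgeR). Its level was still low, at 1.51 TPM in FI3OE. Col20a1, a FACIT, fell to 1.56, 2.43 and 2.24 CPM from 4.38, 4.49 and 4.14 in WT (log2 fold change -1.05 ± 0.17, FDR 0.00063 by edgeR). Without FI3OE replicate 1 it was no longer past the fold cutoff, which left 1 member past both cutoffs.

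Col28a1 rose from 67.6 ± 3.14 to 110.4 ± 5.03 CPM (log2 fold change 0.71 ± 0.046) and Col8a1, a short chain collagen, from 57.7 ± 6.81 to 84.8 ± 5.63 CPM. Col12a1, Col14a1 and Col16a1, all FACITs, fell by 0.16, 0.21 and 0.26 on the log2 scale. With transcript length in the fit all 3 lost their calls (edgeR FDR 0.087 for Col12a1 and 0.0995 for Col14a1), and Col16a1 stood at -0.05 (FDR 0.67). Col12a1 was also not called without WT replicate 2 (FDR 0.067) or 3 (FDR 0.077). Col14a1 had overlapping groups and lost its call without FI3OE replicate 2 or 3 or WT replicate 2 or 3 (FDR 0.098 to 0.17 by edgeR). The 8 members that did not pass the filter had group means of at most 0.408 CPM.

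**Figure D2:**
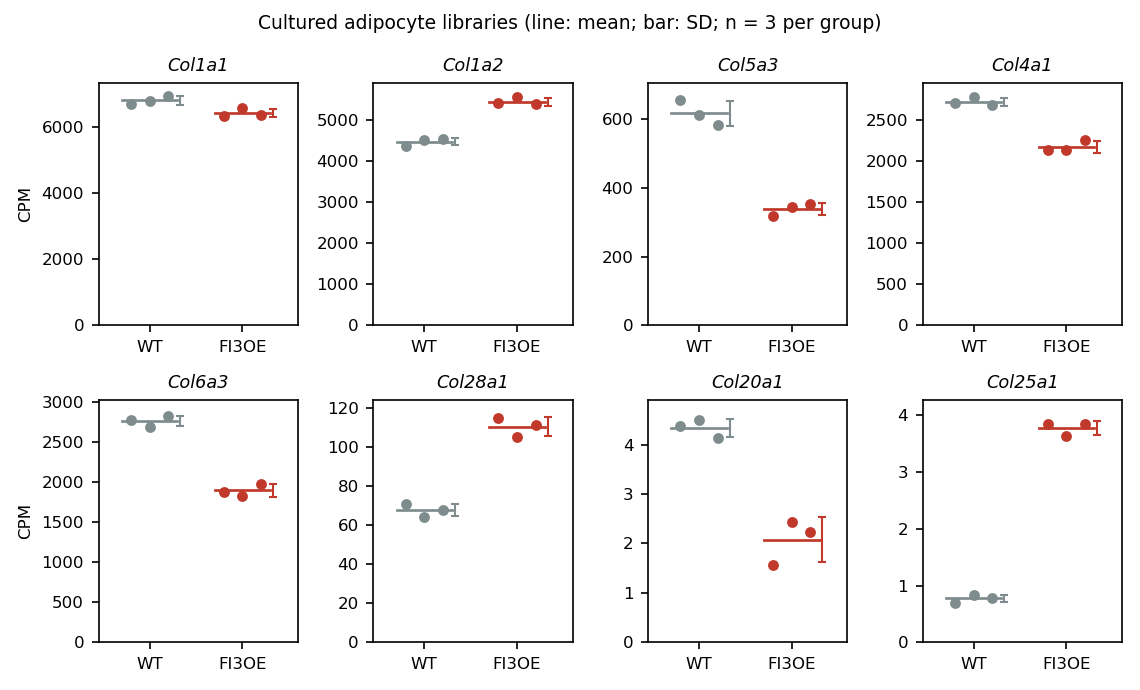
CPM of 8 collagen genes in each of the 3 WT and 3 FI3OE cultured adipocyte libraries (points), with the group mean (line) and SD (bar); every axis starts at 0. Col1a2, Col28a1 and Col25a1 lie higher and the other 5 lower in all FI3OE libraries, and the gap is narrowest for Col1a1.

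Some cell type markers also differed in these cultures, where 20.2% of all genes tested were higher and 16.8% lower. The summed CPM of stromal progenitor markers was 5102 to 5324 in FI3OE and 6590 to 6814 in WT, of which Gsn alone was 2690 ± 81.4 and 4178 ± 29.6. Of the 12 markers 5 were called higher and 2 lower. Adipocyte markers summed to 12680 to 12932 CPM against 13526 to 13547, with 3 higher and 7 lower of 14. Macrophage markers summed to 2114 to 2144 CPM against 2209 to 2362, with 3 higher and 4 lower of 13. Mural cell markers summed to 964 to 1076 CPM against 889 to 1011, with overlap and with 3 higher and 2 lower of 9. Endothelial markers summed to 30.0 to 32.8 against 26.1 to 29.4 CPM and mesothelial markers to 9.17 to 15.4 against 7.84 to 9.33 CPM. The part of these cells in the collagen values was not tested.

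Loss of IRF3 was compared with WT in eWAT TRAP, the second way in which downstream genes of IRF3 were sought. Summed over all members, collagen RNA in the TRAP libraries was lower in FI3KO, at 5159 to 8048 against 8961 to 12753 CPM. The fibrillar class was not lower in the libraries numbered 1 and 2, at 3013 and 2556 CPM in FI3KO and 2554 CPM in each WT library. Col6a1, Col6a2 and Col6a3 fell by 1.23 to 1.52 on the log2 scale, Col1a1 fell by 1.82 with Col1a2 not called, and Col4a1, Col4a2 and the multiplexins fell by 0.34 to 0.66, while the other 4 type IV chains tested were not called. The filter left 26 of the 44 members. By edgeR's quasi-likelihood test, 13 were lower and 0 higher at an FDR of at most 0.05, against 18.3% lower, 19.1% higher and 37.4% either way among all 13624 genes tested. The median log2 fold change of the 26 was -0.62, beside 0.02 over all genes tested. Past both cutoffs were 7 members, all lower, against 4.87% lower, 1.74% higher and 6.61% either way among all genes. Groups did not overlap for 7 of the 26 members, against 16.0% of all genes.

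At an unadjusted p under 0.05, too, 0 of the 26 members were higher by edgeR and 0 by DESeq2's Wald test, which called the same number, 13, lower. When only the libraries numbered 3 to 6 were used, 1 member was higher at an FDR of at most 0.05, against 25.7% of all genes.

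The type VI chains Col6a1, Col6a2 and Col6a3 separated the genotypes most cleanly. Col6a1 ranged in FI3KO from 262 CPM over a median of 333 to 465, and in WT from 742 over 908 to 1019. Col6a2 ranged from 232 over 291 to 362 CPM against 565 over 682 to 784, and Col6a3 from 96.5 over 142 to 203 against 354 over 435 to 507. No FI3KO library reached any WT library in these 3 genes. The log2 fold changes were -1.34 ± 0.14 (FDR 6.88e-05 by edgeR), -1.23 ± 0.12 (FDR 4.53e-05) and -1.52 ± 0.18 (FDR 0.00012). Type VI chains summed to 445 ± 74.5 TPM in FI3KO and 1184 ± 179 in WT (SD, n = 6).

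Col6a5 was at a low level, ranging from 0.657 over 1.201 to 3.89 CPM in FI3KO and from 0.876 over 5.33 to 19.7 in WT. The groups overlapped widely, and the log2 fold change was -2.11 ± 0.69 (FDR 0.029 by edgeR). In the libraries numbered 1 and 2 it stood at 1.53 ± 0.46 (FDR 0.11) and in those numbered 3 to 6 at -3.28 ± 0.47. Without WT replicate 3 its log2 fold change was -1.41 (FDR 0.095), and the call was also lost without FI3KO replicate 3, 4, 5 or 6 or WT replicate 6 (FDR 0.053 to 0.060). Col6a6 was not called with all TRAP libraries. In those numbered 3 to 6 it stood at -0.94 ± 0.32 (edgeR FDR 0.032), and in those numbered 1 and 2 at 0.77 ± 0.32 (FDR 0.18). The difference between the sets passed for Col6a6 (FDR 0.028).

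Among the fibrillar members Col1a1 fell and Col1a2 did not. Col1a1 ranged from 115 over 243 to 535 CPM in FI3KO and from 505 over 1051 to 1468 in WT. The groups overlapped only through the libraries numbered 1 and 2, and the log2 fold change was -1.82 ± 0.41 (FDR 0.0043 by edgeR). Col1a2 ranged from 379 over 444 to 654 CPM in FI3KO and from 325 over 424 to 463 in WT, with a log2 fold change of 0.19 ± 0.13 (FDR 0.27). Col3a1 ranged from 341 over 495 to 603 CPM against 420 over 531 to 677 and was not called (log2 fold change -0.17 ± 0.17, FDR 0.45 by edgeR).

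Among the type V chains, only Col5a1 was called with all TRAP libraries. Col5a1 ranged from 314 over 396 to 498 CPM in FI3KO and from 548 over 713 to 923 in WT, without overlap (log2 fold change -0.83 ± 0.14, FDR 0.00089 by edgeR). It stood at -1.11 ± 0.11 in the libraries numbered 3 to 6 and, not called, at -0.23 ± 0.083 in those numbered 1 and 2 (FDR 0.14), and this difference passed the test (FDR 0.0037). Col5a3 was at -0.25 ± 0.17 (FDR 0.27) and Col5a2 at -0.03 ± 0.14 (FDR 0.88), neither called. The other 5 fibrillar members did not pass the filter and were at or below 0.493 CPM in every group mean.

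The 4 abundant basement membrane members fell by less than Col6a1, Col6a2 and Col6a3. Col4a1 ranged from 1050 over 1314 to 1526 CPM in FI3KO and from 1681 over 1855 to 2321 in WT, with a log2 fold change of -0.59 ± 0.11 (FDR 0.0017 by edgeR). Col4a2, its head-to-head neighbour, ranged from 575 over 747 to 872 CPM against 1030 over 1134 to 1422 and moved by nearly the same amount, -0.66 ± 0.11. Groups of Col18a1 did not overlap either, at 463 over 498 to 578 CPM against 601 over 677 to 773 (log2 fold change -0.40 ± 0.075). Those of Col15a1 just overlapped, at 799 over 1029 to 1133 against 1132 over 1248 to 1431 (log2 fold change -0.34 ± 0.091, FDR 0.010 by edgeR). In the libraries numbered 1 and 2 alone, Col4a1 stood at -0.21 ± 0.071 (FDR 0.13 by edgeR), Col4a2 at -0.26 ± 0.058 (FDR 0.067) and Col18a1 at -0.12 ± 0.073 (FDR 0.33), none of the 3 called. In those numbered 3 to 6 they stood at -0.77 ± 0.11, -0.87 ± 0.11 and -0.54 ± 0.062, and the difference between the sets passed for each (FDR 0.034, 0.022 and 0.012). Col4a3, Col4a4, Col4a5 and Col4a6 had group means of at most 4.24 CPM and were not called with all TRAP libraries. In those numbered 3 to 6, Col4a5 stood at -1.63 ± 0.37 (edgeR FDR 0.0041). It stood at 0.97 ± 0.28 in those numbered 1 and 2 (FDR 0.11), and the difference between the sets passed (FDR 0.0080).

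Among the FACITs, Col12a1 ranged from 19.98 over 26.3 to 59.1 CPM in FI3KO and from 58.7 over 93.2 to 128 in WT. The groups overlapped by less than 1 CPM, and the log2 fold change was -1.43 ± 0.29 (FDR 0.0024 by edgeR). Col14a1, which binds decorin on fibrils, fell from 4.83 ± 1.57 to 1.90 ± 1.12 CPM (SD, n = 6, log2 fold change -1.35 ± 0.38). Col16a1 was at 28.3 ± 15.1 against 49.9 ± 8.93 CPM, and its call (log2 fold change -0.82 ± 0.29, FDR 0.043 by edgeR) was lost when any one of the libraries numbered 3 to 6 was left out (FDR 0.053 to 0.085). In the libraries numbered 1 and 2 Col14a1 stood at 0.10 ± 0.23 and Col16a1 at 0.075 ± 0.086, against -2.15 ± 0.32 and -1.45 ± 0.23 in the others. Col8a1, Col10a1, Col20a1 and Col23a1 were not called with all TRAP libraries. In those numbered 3 to 6, Col10a1 stood at -1.69 ± 0.30 (edgeR FDR 0.0011) and Col8a1 at -1.96 ± 0.58 (FDR 0.018). In those numbered 1 and 2 they stood at 1.04 ± 0.46 and 0.71 ± 0.35, not called. The difference between the sets passed for each (FDR 0.0029 and 0.048).

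**Figure D3:**
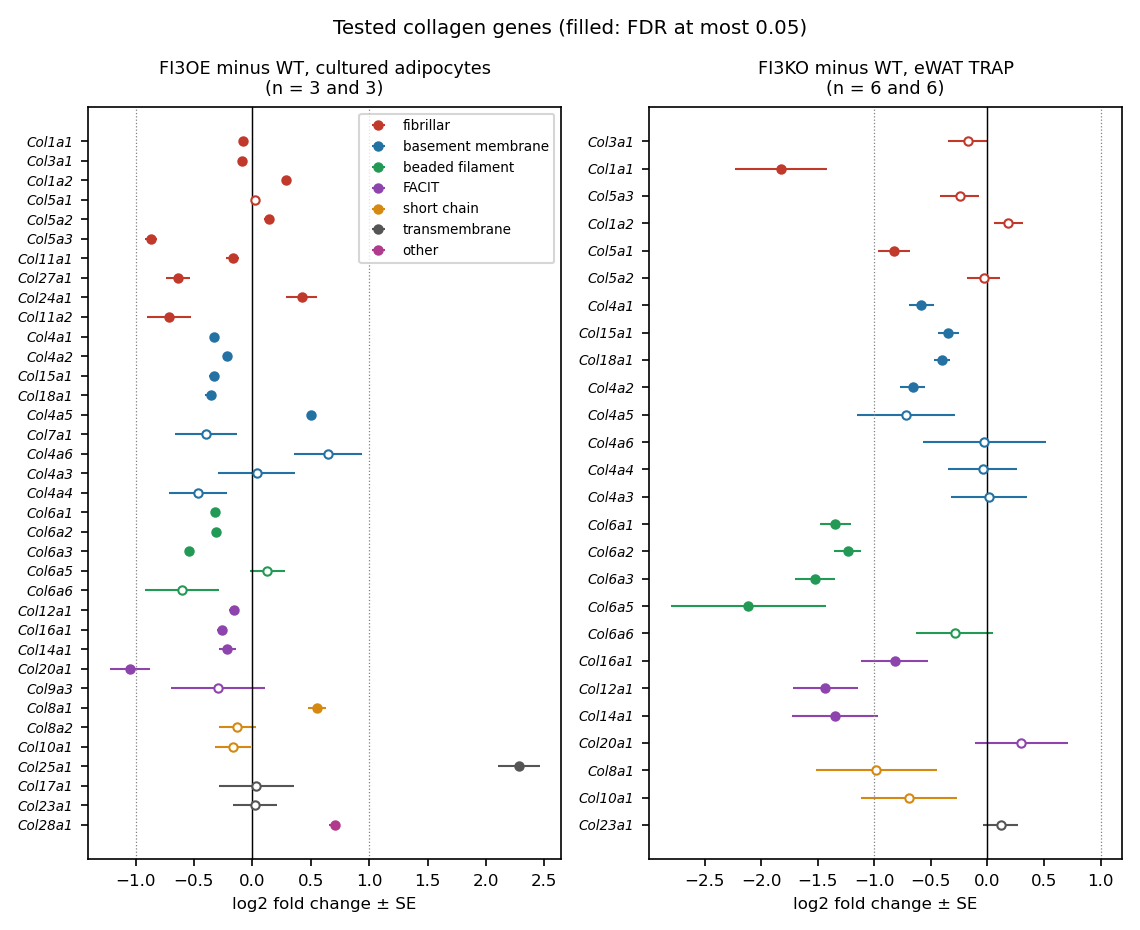
Log2 fold change ± SE of every tested collagen gene in FI3OE against WT cultures (left, 36 genes) and FI3KO against WT TRAP (right, 26 genes), coloured by class; filled points passed an FDR of 0.05, and dotted lines mark a log2 fold change of -1 and 1. Col6a1, Col6a2 and Col6a3 (green) are filled and below 0 on both sides, and no filled point lies above 0 in TRAP.

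The size of the TRAP difference depended on the set of libraries. In the libraries numbered 3 to 6, Col1a1 was at 115 to 244 CPM in FI3KO and 949 to 1468 in WT (log2 fold change -2.78 ± 0.28, FDR 2.67e-05 by edgeR). In those numbered 1 and 2 it was at 420 to 535 against 505 to 509 CPM, a log2 fold change of -0.08 ± 0.12 (FDR 0.70). A test of this difference between the sets, as the interaction of genotype and set in the same model, gave -2.69 ± 0.43 (FDR 0.00090 by edgeR). The split, and this test of it, were chosen with results of these data known, and what sets the libraries apart was not tested.

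The interaction passed an FDR of 0.05 for 18 of the 26 members, against 26.5% of all genes tested, and for 17 of the 18 the difference was more negative in the libraries numbered 3 to 6. The exception was Col23a1. In those libraries 19 members were called lower (24.8% of all genes) and 1, Col23a1, higher (25.7%), with 13 past both cutoffs (13.6%). In libraries 1 and 2 alone, 4 were called lower (1.98% of all genes) and 0 higher, with 0 past both cutoffs. The shares of all genes higher or past both cutoffs in that set are not given. At an unadjusted p under 0.05 in the same edgeR fit, 7 were lower and 6 higher, 2 of the latter by at least 1 on the log2 scale. The share of all genes at that unadjusted cutoff is not given, so these counts cannot be set beside it. The 4 called lower by FDR were Col6a1 (-0.77 ± 0.080), Col6a2 (-0.77 ± 0.083), Col6a3 (-0.84 ± 0.061) and Col15a1 (-0.33 ± 0.057), on the log2 scale. WT libraries 1 and 2 were closer to each other than other pairs, so SEs and calls in this set may be too narrow.

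Col15a1 was alike in both sets, at -0.35 ± 0.12 and -0.33 ± 0.057, and its interaction was not called (-0.02 ± 0.19, FDR 0.96 by edgeR). Col6a1, Col6a2 and Col6a3 were called in both sets, with the larger difference in the libraries numbered 3 to 6, where Col6a3 stood at -1.91 ± 0.13 (interaction -1.06 ± 0.20, FDR 0.0023). Col12a1 was at -2.16 ± 0.14 in the libraries numbered 3 to 6 and at -0.18 ± 0.11 in those numbered 1 and 2. Col5a3 passed as lower in the libraries numbered 3 to 6 (-0.58 ± 0.14, FDR 0.0054) and stood at 0.34 ± 0.084 in the others (FDR 0.082 by edgeR).

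**Figure D4:**
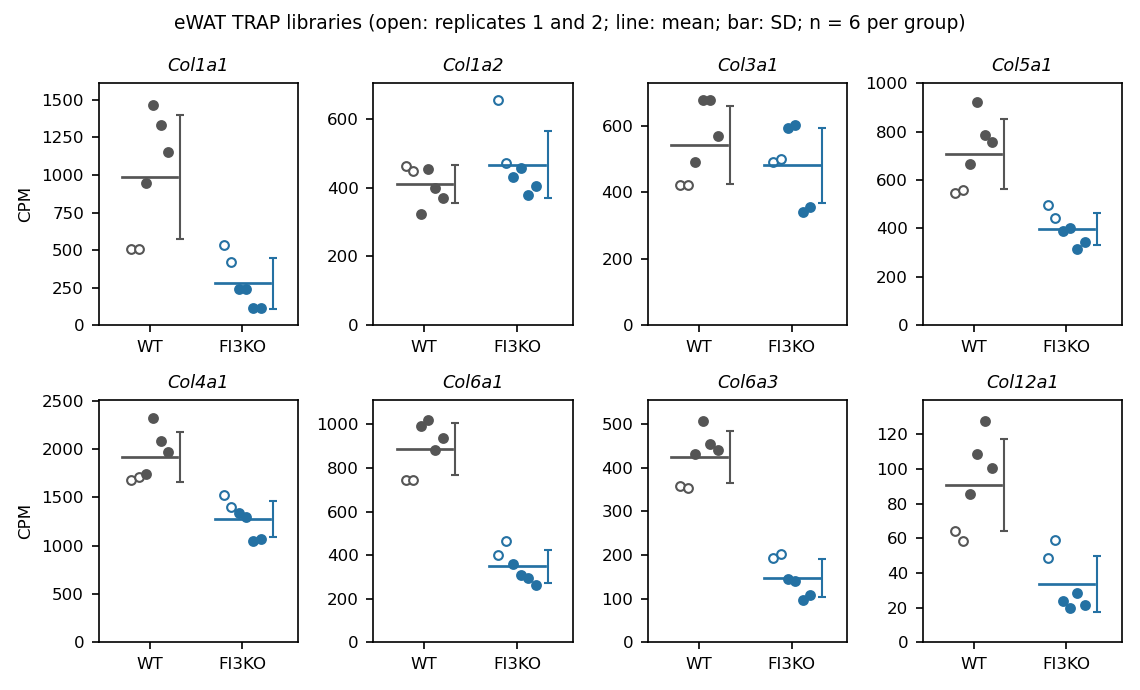
CPM of 8 collagen genes in each of the 6 WT and 6 FI3KO TRAP libraries (points; open points are those numbered 1 and 2), with the group mean (line) and SD (bar); every axis starts at 0. Col6a1 and Col6a3 separate all 12 libraries by genotype, while Col1a1 lies between 420 and 535 CPM in the open points of both genotypes.

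Most macrophage markers tested were lower in FI3KO TRAP too. Macrophage markers summed to 14.8 to 45.4 CPM in FI3KO and 37.7 to 86.7 in WT, with 9 lower and 1 higher of 12 tested. Cd68, C1qa, C1qc, Fcgr1 and Marco were below 1 CPM. Mural cell markers summed to 1269 to 1384 against 1455 to 1661 CPM, with 3 lower of 8, among them Acta2 at 268 ± 80.6 against 605 ± 93.7, and 5 not called. Of the 8 mural markers, 6 were lower and 1 higher in the libraries numbered 3 to 6 alone, and 1 lower and 1 higher in those numbered 1 and 2. Adipocyte markers summed to 38654 to 42029 CPM in FI3KO and 39235 to 44748 in WT, with 6 higher and 1 lower of 14 and a median log2 fold change of 0.24. Of these 14, 9 were higher and 1 lower in the libraries numbered 3 to 6 alone, and 0 higher and 1 lower by edgeR in those numbered 1 and 2 (3 higher and 7 lower at an unadjusted p under 0.05). Of 10 stromal progenitor markers 3 were lower, among them Fbn1 and Dpp4, and 2 higher, while their sum was 5834 to 8734 CPM in FI3KO and 3409 to 5734 in WT, most of it Gsn. Pi16, Thy1, Dlk1 and Clec3b, also progenitor markers, were below 1 CPM. Endothelial markers summed to 29.6 to 137 and 31.2 to 63.3 CPM, with 1 of 9 higher and 0 lower by edgeR and by DESeq2, and 0 lower at an unadjusted p under 0.05. Mesothelial markers summed to 4.24 to 19.4 and 4.87 to 37.0 CPM, with 0 of 7 called by edgeR or by DESeq2 and 0 at an unadjusted p under 0.05. In the libraries numbered 3 to 6 alone, 12 macrophage markers were lower and 1 higher of 13, and 7 stromal markers lower and 2 higher of 10. Among all genes 24.8% were lower and 25.7% higher there. In those numbered 1 and 2, 1 of 12 macrophage markers was lower and 0 higher by edgeR (3 higher at an unadjusted p under 0.05), against 1.98% of all genes lower. Of 11 stromal markers in that set 0 were lower and 1 higher by edgeR, and 0 and 5 at an unadjusted p under 0.05. There, 4 of 10 endothelial markers were higher, and the share of all genes higher in that set is not given. With the libraries numbered 3 to 6 alone, 1 of 9 endothelial markers was higher and 1 lower, and 1 of 8 mesothelial markers was lower. The part of such cells in the collagen values was not tested.

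The proportions of chains that share a trimer were read per library from TPM. Col1a1/Col1a2 was 1.54 to 1.59 in WT cultures and 1.21 to 1.22 in FI3OE. In TRAP it was 1.14 to 3.47 in WT and 0.294 to 0.882 in FI3KO, so that no FI3KO library reached a WT library. Within the libraries numbered 1 and 2 the WT values lay at the low end of their group and the FI3KO values at the high end. The genotypes did not overlap in this ratio in either set, although in libraries 1 and 2 Col1a1 itself was not called.

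Type VI and type IV pairs were read in the same way. Col6a1/Col6a2 was 1.261 to 1.299 in WT cultures and 1.264 to 1.303 in FI3OE, and 1.01 to 1.09 against 0.850 to 1.08 in WT and FI3KO TRAP. Col6a3/Col6a2 was 0.787 to 0.829 against 0.685 to 0.718 in WT and FI3OE cultures, without overlap, and 0.218 to 0.274 against 0.155 to 0.258 in TRAP, with overlap. Col4a1/Col4a2, taken from the leading transcript of each gene, was 1.18 to 1.31 in WT TRAP and 1.26 to 1.47 in FI3KO. Summed over transcripts this ratio was 2.68 to 2.96 and 2.64 to 3.24. Among the type V pairs, Col5a1/Col5a2 was 3.58 to 5.62 in WT TRAP and 2.11 to 2.84 in FI3KO, and 1.29 to 1.36 in WT cultures and 1.16 to 1.22 in FI3OE. Col5a3/Col5a2 was 0.842 to 0.998 in WT cultures and 0.403 to 0.469 in FI3OE. Its TRAP values overlapped, at 4.85 to 6.24 in WT and 3.61 to 4.88 in FI3KO.

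**Figure D5:**
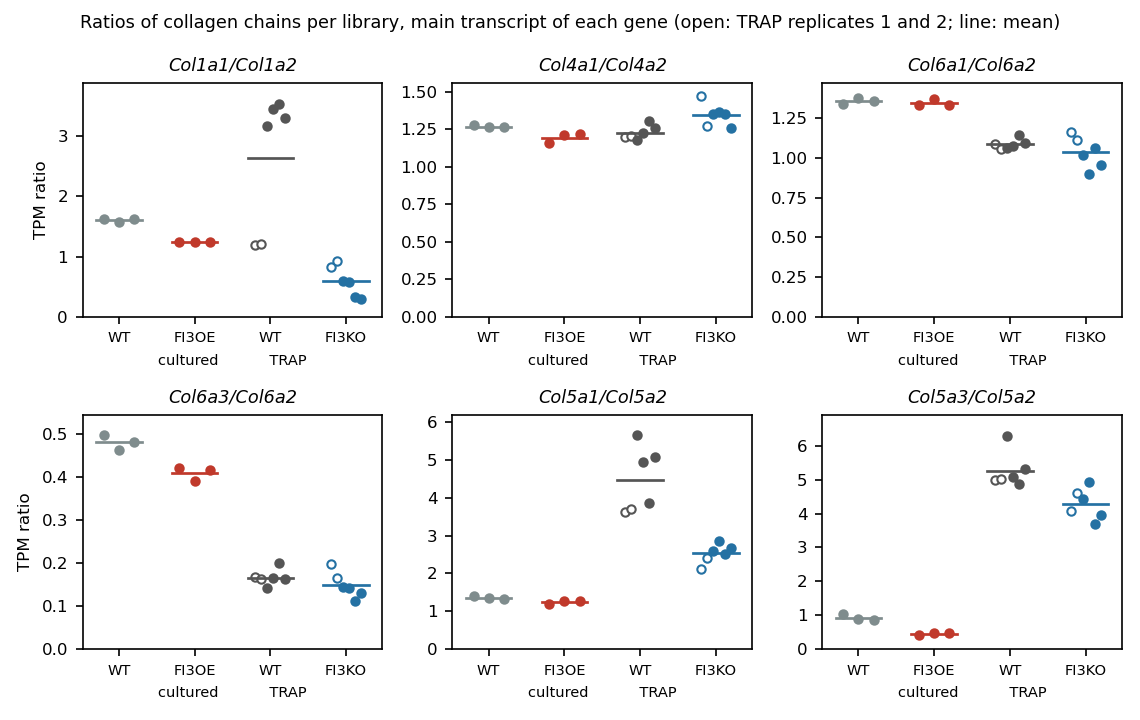
Ratio of TPM of 6 pairs of collagen chains in each library, from the leading transcript of each gene (points; open points are TRAP libraries numbered 1 and 2; line, group mean; axes start at 0). Col1a1/Col1a2 is below 1 in all FI3KO TRAP libraries and above 1 in all others, while Col6a1/Col6a2 lies between 0.903 and 1.38 throughout.

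Gain and loss of IRF3 were then set side by side. Of the 26 members tested in both experiments, 14 were lower in FI3OE and 13 lower in FI3KO. The same 11 were lower in both, which is 78.6% of the first list and 84.6% of the second. They were Col1a1, Col4a1, Col4a2, Col6a1, Col6a2, Col6a3, Col12a1, Col14a1, Col15a1, Col16a1 and Col18a1. Over all 13093 genes tested in both, 406 (3.10%) were lower in both, which is 16.4% and 17.4% of the corresponding lists. No member (0 of 26) was called by edgeR in opposite directions. Of all 13093 genes, 822 were higher in FI3OE and lower in FI3KO and 548 the other way, so few members would fall there at those shares. The experiments share no library, but they differ in depot, culture, diet and RNA fraction, and in the fit of all 18 libraries Col18a1 was the only one of the 11 still called in FI3OE. Of the 11, Col1a1, Col12a1, Col14a1 and Col16a1 lost their culture call also under other settings named above, and 7 of the 11 were not called in the TRAP libraries numbered 1 and 2.

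The genes that act on collagen chains were taken from 6 lists, whose counts stand beside 16.8% lower and 20.2% higher among all genes tested in culture and 18.3% and 19.1% in TRAP. In the TRAP libraries numbered 1 and 2 alone, 5 genes of all lists were lower and 2 higher. Among all genes tested, 1.98% were lower in that set, and the share higher is not given. In the libraries numbered 3 to 6, 24.8% of all genes were lower and 25.7% higher. Chain hydroxylation and glycosylation covers the enzymes that modify proline and lysine in the endoplasmic reticulum. Of 14 tested in culture 3 were higher, with P4ha3, a prolyl 4-hydroxylase subunit, at 48.0 ± 1.43 against 29.3 ± 0.759 CPM, and 2 were lower, with P4hb, its partner subunit, at 697 ± 33.6 against 850 ± 50.1. Of 13 tested in TRAP 7 were lower and 1 higher, while in the libraries numbered 1 and 2 alone 0 were lower by edgeR (3 at an unadjusted p under 0.05) and in those numbered 3 to 6 alone 7 were. P4ha2, Plod1, a lysyl hydroxylase, and P3h1, a prolyl 3-hydroxylase, fell by 0.71, 0.63 and 0.53 on the log2 scale.

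Folding and export of the chains came next. In TRAP 4 of 9 were lower and 0 higher by edgeR and by DESeq2, and 5 lower and 0 higher at an unadjusted p under 0.05. Serpinh1, the collagen chaperone HSP47, was at 632 ± 89.8 CPM in FI3KO and 1256 ± 269 in WT (log2 fold change -0.99 ± 0.15, FDR 0.00038 by edgeR). Sparc, a collagen-binding matricellular protein, was at 2879 ± 414 against 5006 ± 175 CPM. Sec23a, part of the vesicle coat that exports procollagen, fell by 0.55. Of the 9, 2 were lower in the libraries numbered 1 and 2 alone and 6 in those numbered 3 to 6 alone. In culture 3 of 9 were higher, among them Fkbp10, an isomerase that acts on procollagen (0.27 ± 0.042), and 2 lower, Mia3, the cargo receptor TANGO1 (-0.33 ± 0.040), and its relative Mia2 (-0.20 ± 0.039).

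Propeptide removal releases the mature chain. Bmp1, which cuts the C-propeptide, was at 34.5 ± 7.81 against 67.1 ± 8.93 CPM in TRAP and rose slightly in culture, by 0.15 ± 0.045. Adamts2, which cuts the N-propeptide, fell in both experiments, by 0.72 ± 0.11 in TRAP and by 0.20 ± 0.036 in culture. Adamts3, its relative, fell by 0.78 ± 0.16 in culture. In all, 3 of 6 were lower in TRAP and 0 higher by edgeR and by DESeq2 (4 and 0 at an unadjusted p under 0.05), and 2 of 7 lower and 2 higher in culture. With the TRAP libraries numbered 1 and 2 alone 1 of 6 was lower, and with those numbered 3 to 6 alone 6 of 7 were.

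Proteoglycans and adaptors that bind fibrils went both ways. In TRAP 4 of 11 were lower and 2 higher. Bgn, biglycan, was at 7.19 ± 2.48 against 33.3 ± 13.4 CPM and Fn1, fibronectin, at 20.5 ± 16.5 against 77.1 ± 29.7, while Podn, podocan, was at 137 ± 34.0 against 37.7 ± 19.9. Prelp, which binds fibrils to the basement membrane, was at 1149 ± 192 against 2333 ± 167 CPM in TRAP. The libraries numbered 1 and 2 alone had 1 lower and 2 higher of the 11, and those numbered 3 to 6 alone 7 lower and 2 higher. In culture 4 of 11 were higher and 1, Fn1, lower, with Prelp at 260.0 ± 2.93 against 148 ± 7.26 CPM, Fmod, fibromodulin, up by 0.47 ± 0.065 and Ogn by 0.42 ± 0.047.

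Basement membrane partners and receptors complete the lists. Of 11 partners 6 were lower and 2 higher in TRAP, and 7 lower and 3 higher in culture. In TRAP Nid2, nidogen 2, fell by 0.84 ± 0.093 and the laminin chains Lama5 and Lamc1 by 1.66 ± 0.49 and 0.53 ± 0.10. In culture Nid2 rose by 0.77 ± 0.051, Agrn, agrin, rose by 0.87 ± 0.037 and Lama2 fell by 0.61 ± 0.050. Of 9 receptors 5 were lower and 0 higher in TRAP by edgeR and by DESeq2 (6 and 0 at an unadjusted p under 0.05), with Mrc2, the collagen-uptake receptor Endo180, at 30.8 ± 24.8 against 219 ± 94.1 CPM, Ddr2, a collagen-binding tyrosine kinase, down by 0.50 ± 0.13 and the integrin chain Itgb1 down by 0.33 ± 0.058. In the libraries numbered 1 and 2 alone, 0 of 9 receptors were lower by edgeR (3 at an unadjusted p under 0.05) and 1 of 11 basement membrane partners was, and in those numbered 3 to 6 alone 6 of 8 and 6 of 11 were. In culture 3 of 9 were higher, among them Itgb1 (0.20 ± 0.038) and Mrc2 (0.21 ± 0.048), and 2 lower, with Itga1, the partner of Itgb1 in a collagen receptor, at -0.73 ± 0.064.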

How the data were processed

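Libraries were prepared after ribosomal RNA depletion and sequenced without strand information. Per the labels and methods, the authors trimmed reads with fastp 0.20.1 and quantified GENCODE M24 transcripts (GRCm38) with Salmon 1.4.0. The deposited values used here are Salmon's estimated counts and its TPM, 1 value per transcript and library. The estimates were summed per gene through GENCODE M21, which matched 117850 of 118733 transcripts, and the summed expected counts were rounded to whole numbers. Without strand, reads of overlapping genes cannot be told apart.

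Each comparison was fitted on its own libraries with edgeR 4.0.16 (filterByExpr, TMM, quasi-likelihood test) in R 4.3.3, with p-values adjusted over all genes tested (Benjamini-Hochberg, FDR at most 0.05; both cutoffs add a log2 fold change of 1 or more in either direction). CPM are TMM-scaled and fold changes are FI3OE or FI3KO over WT. The script was tested on simulated data. At low CPM a value rests on few reads, so small differences there were not detectable.

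Members, classes and gene lists were chosen with earlier results of these data known. Named by rule were members past both cutoffs, the 4 with the highest TPM among fibrillar, among basement membrane and among the remaining members, and up to 3 genes a pathway list with the largest change. Other genes were named after their values were seen. In all, 14 alternatives were run for the cultures and 24 for TRAP, among them DESeq2 1.42.0 and leaving out each library. WT TRAP replicates 1 and 2 were closer to each other than other pairs and were kept apart, with their sum as an alternative.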

Additional observations from a re-analysis of the deposited data

Results flagged for a closer look

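Of 34 groups of 6 TRAP libraries looked at, 2 held a library far from the others, and chance flags about 1 in 20 such groups (1.7 here). FI3KO replicate 1 had 654 CPM of Col1a2, while the other FI3KO libraries lay between 379 and 472. FI3KO replicate 2 had 3.89 CPM of Col6a5, while the others lay between 0.657 and 1.55. Both libraries belong to the set numbered 1 and 2, and the cause was not tested.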

How the results depend on the processing

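For the 25 members called or named by rule in the cultures, 295 of 350 values under alternatives kept direction and call, 54 kept direction only and 1 reversed; for 16 such members in TRAP these were 355, 23 and 5 of 384, and 1 was newly called. In the fit of all 18 libraries the cultures had 2 members lower, 1 higher and 1 past both cutoffs, and 3 pathway genes lower and 6 higher. With an offset for transcript length 10 pathway genes were higher, and Col11a1 turned to 0.19. With FDR alone, 24 members passed in the cultures and 13 in TRAP. Leaving out 1 library at a time left 1 to 2 members past both cutoffs in the cultures (1 without FI3OE replicate 1) and 6 to 10 in TRAP, and 3 to 5 pathway genes higher in TRAP (3 without FI3KO replicate 3 or WT replicate 3, 4 or 6).

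TRAP replicates 1 and 2 alone gave 4 members lower and 0 past both cutoffs, 5 pathway genes lower and 2 higher. There Col3a1 was at 0.24, Col5a3 at 0.34, Col14a1 at 0.10, Col16a1 at 0.075 and Col6a5 at 1.53. Replicates 3 to 6 alone gave 1 member higher and 13 past both cutoffs. Irf3 in TRAP was called lower in the main fit, at -0.35 ± 0.11 (edgeR FDR 0.020). It was at -0.18 in replicates 1 and 2 (edgeR FDR 0.45) and at -0.36 with the replicate block (edgeR FDR 0.054). With the length offset Irf3 was at 0.71, a call in the other direction (edgeR FDR 0.0018). The cause of these shifts was not tested.

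Same-numbered libraries gave no sign of pairing in their deviations from the group means (correlation -0.046 to 0.015 in the cultures and -0.29 to 0.10 in TRAP). With so few libraries and the split within TRAP, these correlations cannot exclude a pairing, and the labels do not name one. The replicate block left 3 pathway genes higher in TRAP, and among members it lost the calls of Col14a1 in the cultures (edgeR FDR 0.069) and Col6a5 in TRAP (edgeR FDR 0.19).

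From the transcript with the most reads alone, an alternative added after seeing the data, summed member TPM was 2708 in FI3KO and 4730 in WT TRAP, 11464 in FI3OE and 12877 in WT cultures. Col1a1/Col1a2 was then 1.24 in FI3OE and 1.61 in WT cultures, and Col4a1/Col4a2 was 1.34 and 1.23 in FI3KO and WT TRAP and 1.195 and 1.27 in FI3OE and WT cultures. Without mitochondrial transcripts the WT cultures summed to 16181 TPM, against 15709 with them. The FI3OE sum without them is not given, so the difference between the groups cannot be read under this setting.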
